A study of Mus musculus with 19 samples.

Results

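The cholesterol synthesis enzymes described here are 8 genes of one pathway: Hmgcs1, Idi1, Fdps, Fdft1, Sqle, Cyp51, Msmo1 and Dhcr7. They were taken as every probe set, the group of short DNA probes that measures one transcript, whose array annotation gave one of these symbols. This rule found 11 of the 12488 probe sets on the array, 4 of them for Fdps and 1 for each other gene. Of these, 9 were tested. The other two, both for Fdps, stayed at or below the floor of the measurement on all 19 arrays.

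RNA was measured in green fluorescent cells that were sorted by flow cytometry from transgenic mice. In all groups the reporter was green fluorescent protein under a promoter that labels neural crest stem cells and, afterwards, the glia that come from them, so each group holds whichever cells that promoter marked. The 6 groups are stages: E9.5, when the trunk was dissected and the cells are labelled neural crest stem cells (3 arrays), and the sciatic nerve at E12 (3 arrays, labelled Schwann cell precursors), E14 (3), E16 (4) and E18 (3), and at birth, P0 (3), all labelled Schwann cells, with the word early added at E16. No other allele or agent is named for any group. E9.5 differs from E12 in both tissue and age, which cannot be told apart. The labels do not tell whether replicate arrays stem from different animals, so the p-values reflect no more than the spread among these samples, which may be technical.

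Cholesterol is built from acetyl-CoA. Hmgcs1 acts in the steps that lead to mevalonate, Idi1 and Fdps turn the products of mevalonate into farnesyl diphosphate, and Fdft1 joins farnesyl units into squalene. Sqle oxidizes squalene, and Cyp51, Msmo1 and Dhcr7 trim the first ring-shaped sterol down to cholesterol. The genes of this pathway are known to be switched on together by the SREBP transcription factors when sterol in the cell is low, and myelinating Schwann cells are known to make much of the cholesterol of their own membranes.

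The SREBP factors are known to bind the sterol regulatory element, and NF-Y (at CCAAT) and Sp1 (at GGGCGG) to act beside them, so the promoters of 4 members are shown to print where these letters occur. RefSeq's promoter table (GRCm38.p6) held entries for 5 of the 8 genes. Fdps, Fdft1 and Sqle are named only. Shown are the 250 bases before the start of 4 of the genes, 5′ to 3′ on the strand of the gene, with matches in capitals. Both strands were searched for TCACNCCA, the core of the sterol element, for the wider form TCACNNCA, which includes it, for the NF-Y box CCAAT and for the Sp1 box GGGCGG. A box on the other strand is shown as its reverse complement.
Hmgcs1: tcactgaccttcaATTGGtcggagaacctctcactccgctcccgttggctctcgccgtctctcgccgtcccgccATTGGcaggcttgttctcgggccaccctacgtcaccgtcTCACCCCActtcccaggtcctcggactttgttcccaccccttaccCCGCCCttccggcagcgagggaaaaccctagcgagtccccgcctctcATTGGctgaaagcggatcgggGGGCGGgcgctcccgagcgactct
Msmo1: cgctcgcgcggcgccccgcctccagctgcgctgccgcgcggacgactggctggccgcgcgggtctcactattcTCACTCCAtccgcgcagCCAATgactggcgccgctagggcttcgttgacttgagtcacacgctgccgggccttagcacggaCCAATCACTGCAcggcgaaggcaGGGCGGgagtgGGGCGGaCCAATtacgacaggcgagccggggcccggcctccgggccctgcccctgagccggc
Cyp51: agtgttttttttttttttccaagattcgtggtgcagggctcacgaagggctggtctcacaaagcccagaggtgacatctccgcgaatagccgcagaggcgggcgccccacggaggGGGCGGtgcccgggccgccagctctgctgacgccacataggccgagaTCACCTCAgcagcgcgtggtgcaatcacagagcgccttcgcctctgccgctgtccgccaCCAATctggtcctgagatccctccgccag
Idi1: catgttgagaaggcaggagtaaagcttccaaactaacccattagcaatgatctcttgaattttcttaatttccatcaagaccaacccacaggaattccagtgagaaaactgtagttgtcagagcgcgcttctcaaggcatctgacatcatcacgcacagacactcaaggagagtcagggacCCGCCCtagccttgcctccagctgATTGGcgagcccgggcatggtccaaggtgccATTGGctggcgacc
They lie at chr13:119690101-119690350 on the plus strand (Hmgcs1), chr8:64733579-64733828 on the minus strand (Msmo1), chr5:4104698-4104947 on the minus strand (Cyp51) and chr13:8885356-8885605 on the plus strand (Idi1). Hmgcs1 held TCACNCCA at 137 to 130 bases before the start, and Msmo1 held it at 177 to 170. This core was present in 3.67% of all 32851 promoters of this length. The wider form, in 11.4% of promoters, was also found in Cyp51 at 88 to 81 bases before the start and once more in Msmo1 at 92 to 85, where it shares a base with a CCAAT. Idi1 held neither form in its window. Dhcr7, whose 3 promoter entries are not printed, held the wider form in 2 of them. The NF-Y box, in 33.8% of promoters, occurred in all 4 windows: 3 times in Hmgcs1, 3 times in Msmo1, 2 times in Idi1 and once in Cyp51. The Sp1 box, in 32.7% of promoters, occurred in all 4 as well. A match describes letters and is not a measured binding site.

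Arrays were similar in overall signal: the median expression index, a linear intensity per probe set, lay between 174 and 207, and the share of probe sets at or under the floor of 68.5 was 22.6 to 27.3%. The GAPDH control signal, the ratio of probes at the 3′ end of the transcript over probes at its 5′ end, differed more. It lay between 2.33 and 6.23 on 16 arrays and was 9.12 on E16 replicate 2, 7.69 on P0 replicate 1 and 6.80 on P0 replicate 3. By stage it ran from 2.33 to 3.41 at E9.5, 3.175 to 4.53 at E12, 5.10 to 6.23 at E14 and 4.115 to 4.83 at E18. Every E14 array thus exceeded every E12 and E18 array, so the ratio cannot be fully told apart from stage where it serves as a covariate. Summed fibroblast markers (10 of 10 tested; Col1a1, Col3a1 and others) ran from 1478 to 2203 at E9.5, 11753 to 14191 at E12, 18530 to 25888 at E14, 26556 to 33631 at E16, 25791 to 30832 at E18 and 22033 to 29844 at P0. Bright genes weigh most in this sum: Col1a2 reached 9410, while Pdgfra stayed between 102 and 210. Of the 10 fibroblast markers, 8 had a fitted log2 change above 0 from E14 to E16 (median 0.37) and 4 from E14 to E18 (median -0.03). Of the Schwann lineage markers, Sox10 and Erbb3 lay above the floor on all 19 arrays and S100b on 3. The sum of the list (10 of 13 tested) ran from 5682 to 6898 at E9.5, 18360 to 22539 at E12, 22820 to 25687 at E14, 16671 to 26095 at E16, 22346 to 25737 at E18 and 16003 to 29011 at P0. Macrophage markers summed to 2187 to 3424 at E14, 1603 to 1958 at E16 and 1743 to 2131 at E18. The part of these cell types in the results that follow was not tested, and in such sorted populations fewer cells of a type and less RNA per cell cannot be told apart. Of the adipocyte markers, Fabp4 and Adipoq lay above the floor on fewer than 3 arrays and were not tested, while Lpl lay above it on 10 and Cd36 on 8.

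**Figure D1:**
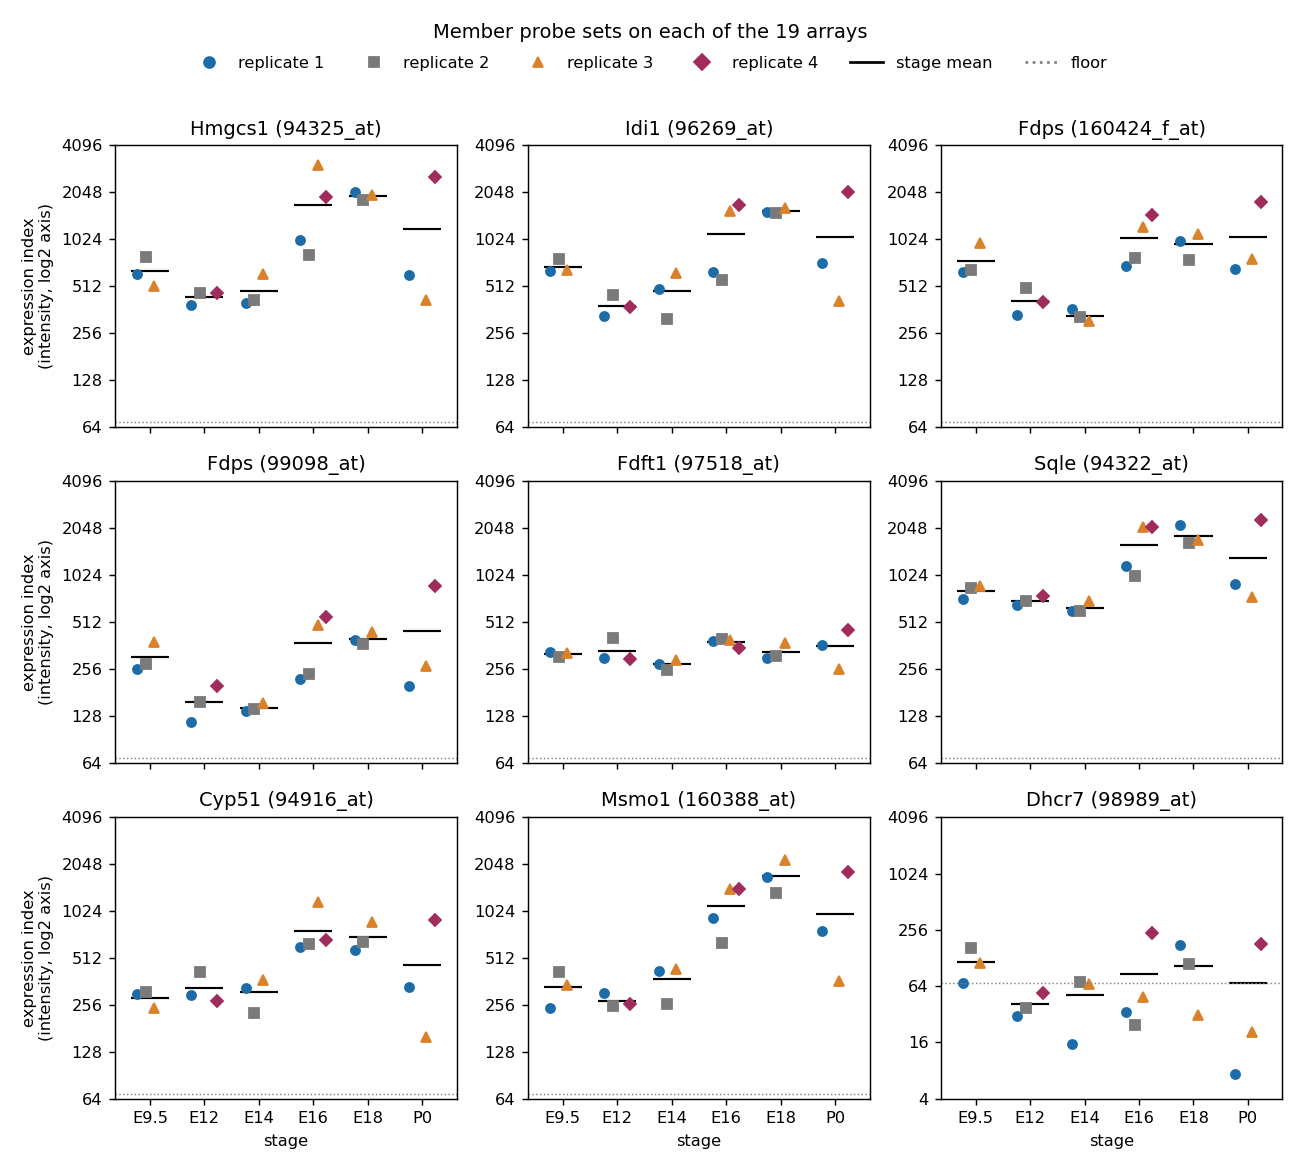
Expression index (intensity, log2 axis) of the 9 tested probe sets of the 8 enzymes on each of the 19 arrays, by stage; symbols mark replicate numbers, bars the stage means and the dotted line the floor of 68.5. All probe sets but those of Fdft1 and Dhcr7 stood high on all 3 E18 arrays, spread more widely at E16, and had 1 high array (replicate 4) at P0.

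In a comparison added after seeing the data, 4 of the 9 tested probe sets, of 4 enzymes, rose between E14 and E18. Of all probe sets, 0.912% rose. Leaving out any 1 array of those stages took the count of enzyme probe sets to between 0 and 2. Over all probe sets, calls in either direction then went from 292 to between 174 and 228. The index of Msmo1 rose 4.67-fold, of Hmgcs1 4.16-fold, of Sqle 2.89-fold and of Fdps (160424_f_at) 2.85-fold. Cyp51, Idi1 and the other Fdps probe set had fitted log2 differences of 1.18, 1.77 and 1.46 that did not pass the adjusted test. Fdft1 and Dhcr7 stood apart from the others, Fdft1 by a nearly level signal and Dhcr7 by lying near or under the floor.

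Hmgcs1, the enzyme at the head of the pathway here, had an index of 609, 790.0 and 511 on the E9.5 arrays, then 389, 459.5 and 463 at E12 and 398, 414 and 617 at E14. On the 4 E16 arrays, replicates 1 to 4, it read 1005, 816, 3044 and 1910.5. At E18 it read 2052, 1828 and 1958, and on P0 replicates 1, 3 and 4 it read 605, 419 and 2560.0. The lowest E16 array thus stood above the highest E14 array, all 3 E18 arrays lay within a narrow band, and the P0 arrays spanned from the E12 level to above the E18 level. In stage means ± SD the order was E18 (1946 ± 112), E16 (1694 ± 1019, n = 4), P0 (1195 ± 1186), E9.5 (637 ± 141), E14 (476 ± 122) and E12 (437 ± 41.4), with n = 3 where not given. Every pair of neighbours in that order overlapped.

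Idi1 interconverts the isopentenyl building blocks made from mevalonate. Its index was 641, 765 and 647 at E9.5, 329, 449 and 375 at E12 and 489, 316 and 622 at E14. It read 634, 558, 1559.5 and 1700.2 on E16 replicates 1 to 4, 1521, 1517 and 1636 at E18, and 725, 414 and 2045 on P0 replicates 1, 3 and 4. All E9.5 arrays exceeded all E14 and E12 arrays. E16 replicates 1 and 2 remained at the E14 level while replicates 3 and 4 stood at the E18 level, so the E16 and E14 ranges overlapped.

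Fdps makes farnesyl diphosphate, the branch point toward sterols, prenylated proteins and ubiquinone. Its brighter probe set, 160424_f_at, carries the suffix of probes that can match more than one sequence. It read 626, 649 and 964 at E9.5, 334, 497 and 407 at E12, 365, 323 and 305 at E14, 687, 781, 1228 and 1454 at E16, 994, 759 and 1099.6 at E18 and 657, 761 and 1771 at P0. Every array from E16 on stood above every E12 and E14 array, at P0 as well. The probe set 99098_at followed the same course: 255, 277 and 381 at E9.5, 118, 157 and 198 at E12, 138, 142 and 155 at E14, 220.4, 237, 490.0 and 548 at E16, 390.2, 368 and 439 at E18, and 198, 267 and 872 at P0. For both, the E9.5 arrays stood above all E12 arrays. The other two Fdps probe sets read 0 to 21.5 (162217_r_at) and 22.2 to 56.8 (162281_at) over all stages and carried no measurable level.

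Fdft1, squalene synthase, commits farnesyl diphosphate to sterols. Its index stayed between 250.4 and 456 on all 19 arrays, with 332, 308 and 324 at E9.5, 301, 404 and 295 at E12, 277, 250.4 and 293 at E14, 389, 396, 392 and 349 at E16, 301, 309.9 and 377 at E18, and 367, 255 and 456 at P0. E14 had the lowest mean, 274 ± 21.7, and E16 the highest, 382 ± 21.9, and those ranges did not overlap. Unlike in the genes above, the 4 E16 arrays lay close together.

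Sqle, squalene epoxidase, is the first oxygen-requiring step. It read 723, 848 and 877 at E9.5, 657, 698 and 752 at E12, 599, 599.5 and 701 at E14, 1169, 1014, 2078 and 2098 at E16, 2137, 1658 and 1719 at E18, and 899, 745 and 2303 at P0. The 3 earliest stages lay between 599 and 877, and every E16 and E18 array stood above that range. P0 replicate 3 lay within the early range and replicate 1 just above it, and replicate 4 was the highest array of all 19.

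Cyp51 removes a methyl group from lanosterol, the first sterol of the pathway. It read 299, 311 and 246 at E9.5, 296, 419 and 271 at E12 and 329, 229 and 368 at E14. It then read 605, 630.4, 1169 and 667 at E16, 574, 645 and 878 at E18, and 334, 159 and 896 at P0. No E16 or E18 array overlapped any earlier one. At E16 only replicate 3 stood apart, and P0 replicate 3 was the lowest of all 19 arrays.

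Msmo1 acts soon after Cyp51, removing further methyl groups. It read 243, 417 and 342 at E9.5, 306, 252 and 258 at E12, 426, 258 and 437 at E14, 922, 642, 1411 and 1417 at E16, 1693, 1328 and 2170.3 at E18, and 759, 367 and 1823 at P0. Its stage means placed E18 first (1731 ± 422), then E16 (1098 ± 382) and P0 (983 ± 753), and last E14 (374 ± 100.2), E9.5 (334 ± 87.2) and E12 (272 ± 29.6). Neighbours in that order overlapped, but no array of E16 or E18 reached down to an earlier stage.

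Dhcr7 catalyses the last step to cholesterol. Its probe set lay above the floor on 8 of 19 arrays: all 3 at E9.5 (68.6, 163 and 114), E14 replicate 2 (70.2), E16 replicate 4 (239), E18 replicates 1 and 2 (175 and 112) and P0 replicate 4 (182). Every E12 array lay below the floor, and values below it have no order. Differences in Dhcr7 are therefore measured on few arrays.

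**Figure D2:**
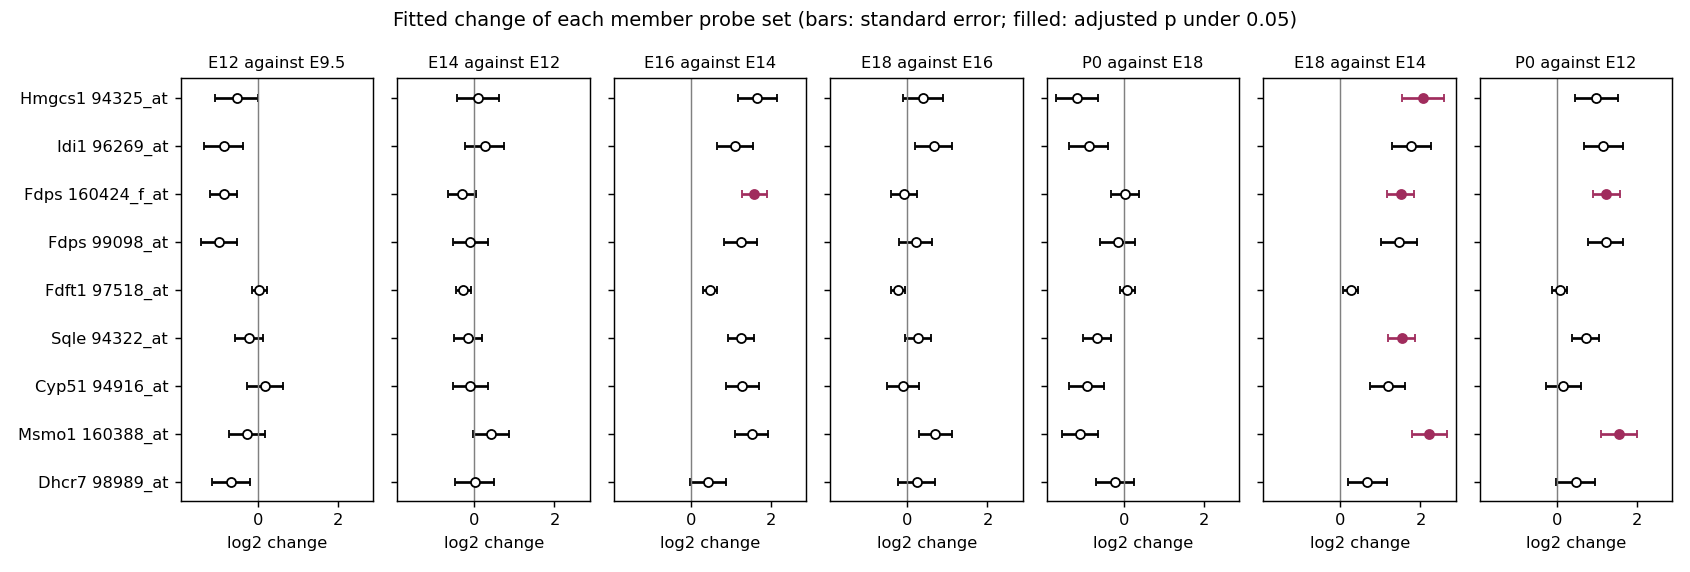
Fitted log2 change of each of the 9 tested probe sets (points) with its standard error (bars) in 7 comparisons of stages; filled points passed the adjusted p threshold of 0.05 (limma). All 9 points lie above 0 for E16 against E14, E18 against E14 and P0 against E12, and 4 of them are filled for E18 against E14.

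The tests asked in which step the levels changed. One linear model with a mean per stage was fitted to all 19 arrays, and p-values were adjusted over 10414 probe sets within a comparison. Over the 5 nerve stages together, the moderated F-test of limma called 6 of the 9 probe sets, against 13.1% of all probe sets. These were Msmo1 (adjusted p = 0.00206), Fdps 160424_f_at (0.00373), Sqle (0.0122), Hmgcs1 (0.0201), Idi1 (0.0339) and Fdps 99098_at (0.0455). Cyp51 (0.0795), Fdft1 (0.337) and Dhcr7 (0.713) were not called. Without E12 replicate 1 or E12 replicate 2, 3 of the 9 were called. Over all probe sets the calls then went from 1364 to 970 and 867, in that order.

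From E9.5 to E12 the fitted level of 7 of the 9 probe sets was lower, with a median log2 difference of -0.52 for the enzymes and 0.01 over all probe sets. None passed the adjusted test in limma (14.1% of all probe sets did), and 2 had an unadjusted p under 0.05. At least the same 14.1% of all probe sets passed that unadjusted threshold, and their full share is not given here. In 5 of them, those of Hmgcs1, Idi1, Fdps (both) and Dhcr7, every E12 array was lower than every E9.5 array, which held for 14.5% of all probe sets. Fdps 99098_at had the widest difference, -0.96 (SE 0.44, adjusted p = 0.18). With lot, the number that the labels give each sample, as a block, both Fdps probe sets were called lower (160424_f_at -1.01, adjusted p = 0.0317; 99098_at -1.23, adjusted p = 0.00926). With the GAPDH ratio as a covariate the median was 0.05, and Hmgcs1 (0.25), Sqle (0.31) and Msmo1 (0.29) turned in sign, with none called. Within lots, the median log2 difference was -0.14 in lot 1 and -0.72 in lot 2, with 1 array a stage.

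From E12 to E14 the median log2 difference was -0.09 for the enzymes and -0.01 over all probe sets. None of the 9 was called by limma, at either the adjusted or the unadjusted threshold, where 2.09% of all probe sets passed the adjusted one. Only Fdft1 had no overlap between the stages, with E14 lower, as had 13.7% of all probe sets. The median turned to 0.54 with the GAPDH ratio as a covariate and to 0.17 with lot as a block, again with no call. Within lots it was 0.13 in lot 1 and -0.22 in lot 2. This is the step in which 5 of 9 tested myelin genes rose, with a median log2 change of 2.11. Mbp, a structural protein of compact myelin, rose 4.93-fold (SE of log2 0.25, adjusted p = 3.19e-05) between the same arrays.

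From E14 to E16 all 9 fitted levels were higher, with a median log2 difference of 1.26 against -0.04 over all probe sets. Fdps 160424_f_at alone passed, rising 3.00-fold (log2 1.58, SE 0.32, adjusted p = 0.0117), where 0.586% of all probe sets passed as higher. In 7 of the 9, all but Idi1 and Dhcr7, every E16 array exceeded every E14 array, which held for 3.8% of all probe sets. Sqle (1.26, SE 0.32, adjusted p = 0.06) and Msmo1 (1.52, SE 0.41, adjusted p = 0.0879) came next, followed by Hmgcs1 (1.66, SE 0.49, adjusted p = 0.137). Of the 9, 8 had an unadjusted p under 0.05 in limma. The share of all probe sets under that threshold is not given here. The Fdps call was lost without E14 replicate 2 (adjusted p = 0.0508) or E14 replicate 3 (0.0667). Without E16 replicate 2, Sqle was called as well (adjusted p = 0.0353), and without the 3 arrays of high GAPDH ratio 7 of the 9 were called, an alternative chosen after seeing the data. Without these 3 arrays, 224 of all probe sets were called in either direction, against 176 in the main fit. Within lots the median log2 difference was 0.86 in lot 1 and 1.66 in lot 3.

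The 4 E16 arrays differed among themselves more than those of E18. The mean log2 deviation of the 8 genes from their means over the 19 arrays was 0.12 on replicate 1, 0.00 on replicate 2 (-0.0009), 0.91 on replicate 3 and 0.97 on replicate 4, against 0.82, 0.63 and 0.80 at E18. On the E14 arrays it was -0.62, -0.87 and -0.44. Replicates 1 and 2, both of lot 1, had GAPDH ratios of 5.80 and 9.12, and replicates 3 and 4 had 4.26 and 3.84. The same replicates 1 and 2 had lower sums of Schwann lineage markers, 16671 and 17742, than replicates 3 and 4, with 25134 and 26095. The part of the ratio or of these markers in the split at E16 was not tested.

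**Figure D3:**
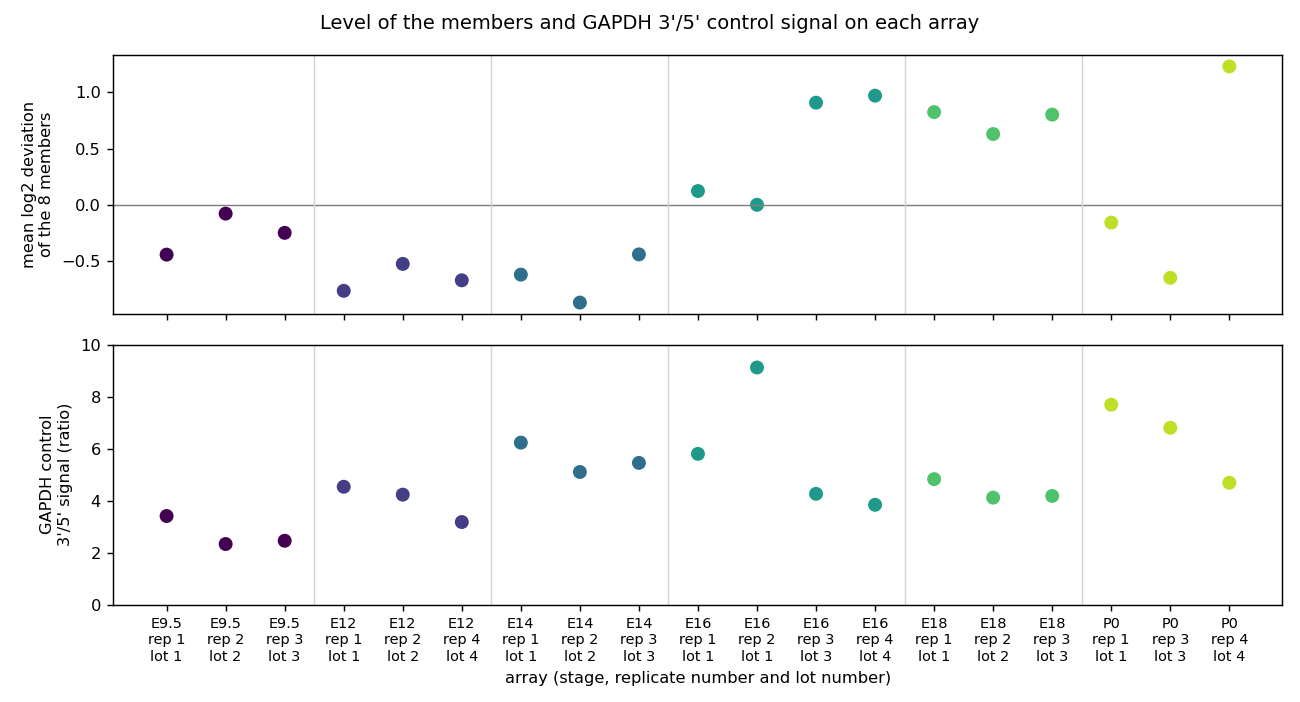
Upper panel, mean log2 deviation of the 8 enzymes from their means over the 19 arrays; lower panel, the GAPDH 3′/5′ control signal (ratio) of the same arrays, ordered by stage with replicate and lot numbers. E16 replicates 1 and 2 and P0 replicates 1 and 3 lie below the E18 arrays in the upper panel, and the 3 highest ratios belong to E16 replicate 2 and to P0 replicates 1 and 3.

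E18 was set against E14, the stages on either side of E16, in a comparison added after seeing the data, which shares its E14 arrays with the one above. All 9 fitted levels were higher, with a median of 1.51 on the log2 scale against -0.06 over all probe sets. The 4 that passed, where 0.912% of all probe sets passed as higher, were Msmo1 (log2 2.22, SE 0.44, adjusted p = 0.00885), Sqle (1.53, SE 0.34, 0.0188), Fdps 160424_f_at (1.51, SE 0.34, 0.0203) and Hmgcs1 (2.06, SE 0.53, 0.0462). Idi1 (1.77, SE 0.49, adjusted p = 0.0662), Fdps 99098_at (1.46, SE 0.44, 0.105) and Cyp51 (1.18, SE 0.44, 0.236) did not pass. In 8 of the 9, all but Dhcr7, every E18 array exceeded every E14 array, as in 7.69% of all probe sets. Fdft1 was among them with a small difference (0.26, SE 0.18, adjusted p = 0.718). Within lots the median log2 difference was 1.50 in lot 1, 1.47 in lot 2 and 1.39 in lot 3. With the GAPDH ratio as a covariate the median was 1.19, and the same 4 were called. With 1 array fewer, the count of calls fell to 0 without E14 replicate 2 or E18 replicate 3. It fell to 1 without E14 replicate 1 or E18 replicate 1, and to 2 without E14 replicate 3 or E18 replicate 2. Over all probe sets, calls in either direction fell as well, from 292 to between 174 and 228. For Msmo1 the adjusted p was 0.051 when E14 replicate 2 was dropped and 0.0537 when E18 replicate 3 was. Hmgcs1 was not called with no filter on low values (adjusted p = 0.0994).

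From E16 to E18 no probe set of the enzymes passed in limma, where 0.0768% of all probe sets did, and none had an unadjusted p under 0.05. The median log2 difference was 0.24 against -0.01 over all probe sets, and all 9 ranges overlapped, where every E18 array was higher in 3.18% and lower in 4.53% of all probe sets. The median turned to -0.10 with the GAPDH ratio as a covariate and to -0.21 without the lot 1 arrays of E16 and P0. Within lots it was 0.97 in lot 1, which holds E16 replicates 1 and 2, and -0.16 in lot 3. The E18 arrays exceeded the lot 1 arrays of E16 in Hmgcs1, Idi1, Sqle and Msmo1, while E16 replicate 3 or 4 lay above the lowest E18 array in each of these genes.

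From E18 to P0 none passed in limma either, where 0.125% of all probe sets did. An unadjusted p under 0.05 was found for 2 (Msmo1 and Hmgcs1), and the share of all probe sets under it is not given here. The median log2 difference was -0.66 for the enzymes against 0.01 over all probe sets. Msmo1 differed by -1.09 (SE 0.44, adjusted p = 0.352) and Hmgcs1 by -1.17 (SE 0.53, adjusted p = 0.405). The 3 P0 arrays gave opposing readings. On replicates 1 and 3 the mean deviation of the 8 genes was -0.16 and -0.65, below all E18 arrays, with GAPDH ratios of 7.69 and 6.80. On replicate 4 it was 1.23, above all other arrays, with a ratio of 4.69. Schwann lineage markers summed to 16003 on replicate 1, 27382 on replicate 3 and 29011 on replicate 4. Replicate 3, low in the enzymes, thus had a higher sum than any E18 array (22346 to 25737). The part of the ratio or of these markers was not tested. Within lots the median log2 difference was -1.07 in lot 1 and -1.21 in lot 3, and no E18 array belongs to lot 4. Without P0 replicate 4, 5 of the 9 were called lower: Sqle (adjusted p = 0.0193), Hmgcs1 (0.0131), Cyp51 (0.0142), Msmo1 (0.0171) and Idi1 (0.0437). Over all probe sets, 715 were then called in either direction, against 13 in the main fit. Without the 3 arrays of high GAPDH ratio, which leaves P0 replicate 4 alone, the median turned to 0.40, and with the ratio as a covariate it was -0.16, with no call in either.

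Over the whole nerve series, P0 against E12, all 9 fitted levels were higher, with a median log2 difference of 0.99 against -0.02 over all probe sets. Msmo1 rose 2.94-fold (log2 1.56, SE 0.44, adjusted p = 0.0237) and Fdps 160424_f_at 2.36-fold (1.24, SE 0.34, adjusted p = 0.0197), where 4.53% of all probe sets passed as higher. These and Fdps 99098_at had every P0 array above every E12 array, which held for 11.9% of all probe sets. Neither was called without E12 replicate 1, E12 replicate 4 or P0 replicate 4. Over all probe sets, calls in either direction were 1705 in the main fit and 1160, 1332 and 2794 in these, in that order. Without P0 replicate 4 the log2 differences were 0.96 for Msmo1 and 0.80 for Fdps. Msmo1 was also lost without E12 replicate 2 (adjusted p = 0.0763) or P0 replicate 1 (0.0551). Without the 3 arrays of high GAPDH ratio, which leaves P0 replicate 4 as the sole P0 array and assumes that it varies like the other stages, the median was 2.12. With the ratio as a covariate it was 1.79, and with array weights 0.40. Within lots the median was 0.64 in lot 1 and 2.12 in lot 4.

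For 6 of the 8 genes the readings followed one another across arrays. Given as a description over 19 arrays that share their stages, Pearson's r of each gene with the mean of the other members was 0.98 for Sqle, 0.968 for Hmgcs1, 0.959 for Idi1, 0.91 for Msmo1, 0.856 for Fdps, 0.83 for Cyp51, 0.57 for Fdft1 and 0.546 for Dhcr7. After the stage means were removed, over the 16 nerve arrays, the values were 0.964 for Sqle, 0.943 for Hmgcs1 and 0.963 for Idi1, so arrays of one stage differed in these genes jointly. Fdft1 (0.57) and Dhcr7 (0.55) were again the least alike. Values this high within stages were not particular to the enzymes. Over the same arrays, r with the mean of the 8 genes was 0.98 for Vps53 and 0.976 for Wdr26. Among the further enzymes of the pathway it ran from -0.744 (Tm7sf2) to 0.846 (Lss).

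Of the further enzymes of the pathway, 10 were tested. From E14 to E16 all 10 had higher fitted levels, but none passed in limma, none had an unadjusted p under 0.05, and the median log2 difference was 0.22. From E14 to E18 it was 0.16, again with no call and no unadjusted p under 0.05. The brightest 2 were Tm7sf2, a sterol reductase, at 825 ± 62.8 at E14 and 826 ± 87.5 at E18, and Lbr, the other sterol reductase of that step, at 439.7 ± 56.5 and 534 ± 132. None of the 10 was called by the F-test over the nerve stages. The only call among the adjacent stages and P0 against E12 was Ggps1, which lengthens farnesyl diphosphate for protein prenylation and rose 1.44-fold from E9.5 to E12 (SE of log2 0.17, adjusted p = 0.0448). Sc5d, which acts just before Dhcr7 and is named after its values were seen, lay below the floor on all 9 arrays through E14. It read 49.9, 44.2, 264 and 101 on E16 replicates 1 to 4, 136, 90.1 and 113 at E18, and 42.3, 23.0 and 147 on P0 replicates 1, 3 and 4 (log2 0.70 for E18 against E14, SE 0.39, adjusted p = 0.582).

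**Figure D4:**
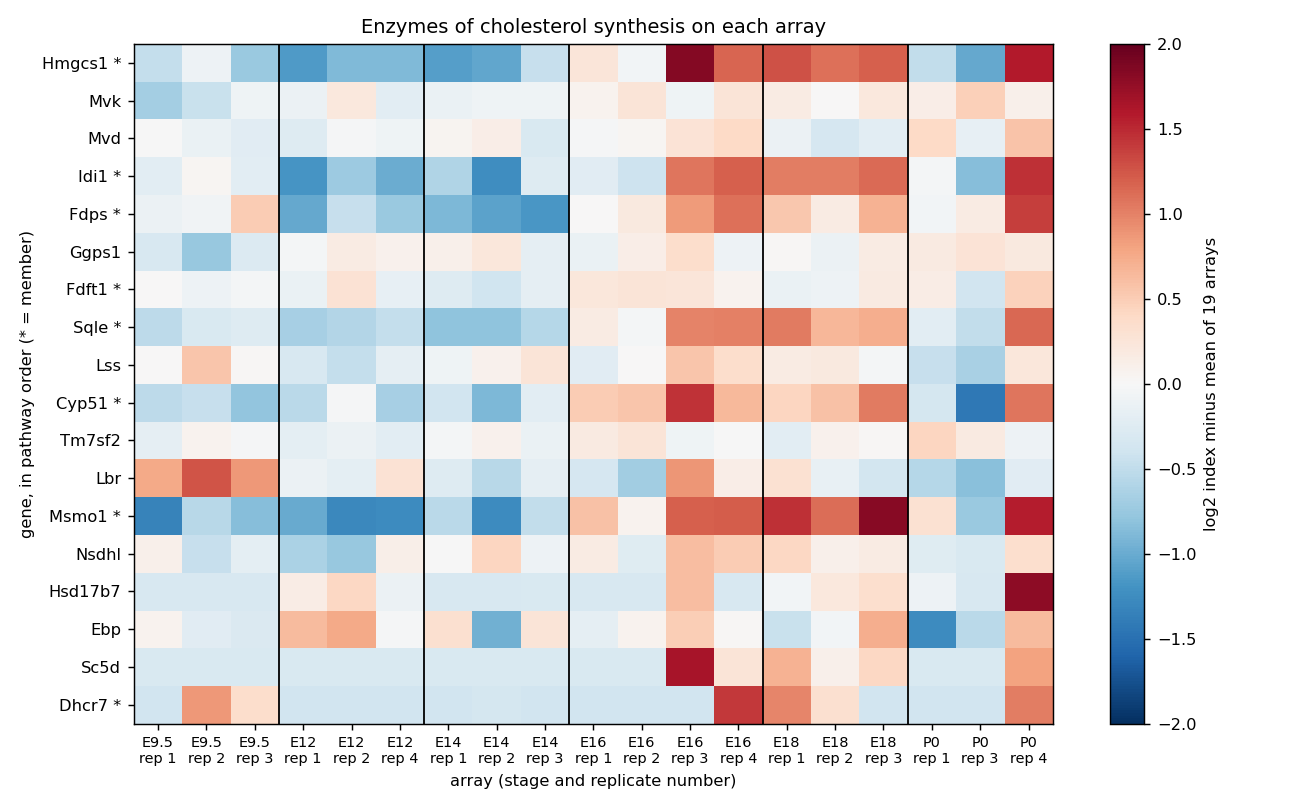
Log2 index minus the mean of the 19 arrays for the 8 enzymes (starred) and the 10 other pathway enzymes tested, in pathway order (rows), on each array (columns); red is above and blue below the mean of a gene. The starred rows other than Fdft1 and Dhcr7 are red on the E18 arrays, on E16 replicates 3 and 4 and on P0 replicate 4, while most unstarred rows are pale.

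Among 13 genes that control sterol synthesis, 6 were tested. Srebf1, which encodes one of the SREBP factors and is named after its values were seen, read 451, 507 and 465 at E14, 498, 495, 533 and 845 at E16, 603, 508 and 553 at E18, and 489, 783 and 853 at P0, with no call in any comparison. Nfyc, a subunit of the CCAAT-binding factor NF-Y, fell from 1524 ± 155 at E12 to 793 ± 173 at P0 (log2 -0.96, SE 0.17, adjusted p = 0.000828), and no other gene of this list was called in any comparison. From E14 to E16 and from E14 to E18, 0 of the 6 were called by limma or had an unadjusted p under 0.05.

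The probe sets most like the mean of the 8 genes were looked for among 9204 others with 1 gene symbol. Over all 19 arrays the highest Pearson's r belonged to Gas7 (0.892), Tmem45a (0.889), Dpep1 (0.883), Sema3b (0.875) and Scd1 (0.867), a fatty acid desaturase, and then to AI506816, Sh3d19, Rab3d, Thbd and Zhx1 (0.863 to 0.844). After stage means were removed, over the 16 nerve arrays, the 10 highest were Vps53 (0.98), Wdr26, Ddx50, Wdr82, Htra2, Golga7, Ppp2cb, Yap1, Prkdc and Oat (0.949). No gene stood in both lists. These values describe likeness over arrays that share stages and lots.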

How the data were processed

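RNA of 19 sorted samples was hybridized to Affymetrix mouse arrays after 2 rounds of in vitro transcription, per the labels' protocols; E9.5 replicates 2 and 3 carry no protocol text. The deposited values are model-based expression indices, 1 linear intensity for each probe set and array. The authors, per the labels, brought arrays to one scale with the smoothing spline of dChip and took probe sensitivities from 18 arrays; the dChip version and which array was left out are not given in the sources used here. Array number limits the precision.

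Gene symbols came from the platform annotation; 66 control probe sets were left out. Values under the 25th percentile (68.5) were set to it and log2 was taken. Probe sets above that floor on fewer than 3 arrays were dropped, leaving 10414. For genes with several probe sets outside the 8 members, that of highest mean stood for the gene. All arrays entered 1 fit with a mean per stage and 13 residual degrees of freedom (limma 3.58.1 in R 4.3.3, lmFit and eBayes); p-values are 2-sided and Benjamini-Hochberg adjusted, threshold 0.05. Standard errors are of the fitted log2 change, and folds are fitted on floored log2 values, so they understate changes of dim probe sets. The script was tested on simulated data.

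The members, lists and tests were chosen with earlier results of these data known. Named genes were all members and, per other list, up to 4 called genes by size of change or, where none was called, the 2 of highest mean; the genes most like the members were the 10 of highest r. Each sample's label gives a lot number, equal to the replicate number except for E16 replicate 2 (lot 1). Replicate numbers were checked for pairing: over 38 pairs of arrays with the same number in different stages, deviations from stage means had a mean correlation of 0.022 (-0.382 to 0.714), against -0.0077 over 112 other pairs. For lots the means were 0.042 over 39 pairs and -0.015 over 111 other pairs. The numbers thus gave no clear sign of pairing, which values of this spread cannot exclude. Alternatives covered floor, filter, pseudocount, normalization, lots, control signal, array weights and single arrays.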

Additional observations from a re-analysis of the deposited data

Results flagged for a closer look

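Among the 4 E16 arrays, 3 probe sets had 1 array apart from the other three, by a gap past the 95% critical value of Dixon's test for 4 samples (chance passes it in about 1 of 20 groups; 10 groups were tested). Cyp51 read 1168.67 on E16 replicate 3, above the other E16 arrays (605 to 667). Dhcr7 read 238.723 on E16 replicate 4, where the other 3 lay below the floor. The test used those values as they stand, although values below the floor have no order, so for Dhcr7 it does not describe measured levels. Fdft1 read 349.103 on E16 replicate 4, below the other three (389 to 396).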

How the results depend on the processing

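Of the 13 values called for single probe sets, 281 alternatives were computed: 222 remained called, 59 did not, and 0 changed direction. Of the 59 values not called, 1060 alternatives gave 75 calls in the same direction; 71 had the opposite sign, none of them called. Counts of enzyme probe sets called that moved by over 1.5 times were as follows. E12 against E9.5 (main count 0) gave 1 with quantile normalization or with only both stages' arrays, and 2 with lot as a block, with the replicate block or with array weights. Over all probe sets, calls in either direction were 1469 in the main fit and 1671, 1844, 1551, 1498 and 3039 in these, in that order. E16 against E14 (1) gave 4 with quantile normalization, 5 with the GAPDH ratio as a covariate, 6 with array weights, 4 without the lot 1 arrays of E16 and P0, 7 without the 3 arrays of high ratio and 0 with only both stages' arrays. Over all probe sets the calls were 176 in the main fit and 223, 272, 912, 204, 224 and 63 in these, in that order. E18 against E16 (0) gave 1 with array weights, and P0 against E18 (0) gave 5 with them, all lower. With array weights the calls over all probe sets went from 8 to 1153 and from 13 to 865 in these 2 comparisons. P0 against E12 (2) gave 5 with quantile normalization, 6 with the covariate and 0 with only both stages' arrays. Over all probe sets the calls were 1705 in the main fit and 1861, 1209 and 430 in these. The fit without the 3 arrays leaves 1 P0 array, so its calls are not counted here. E18 against E14 (4) gave 7 with array weights, where calls over all probe sets went from 292 to 2026. The F-test (6) gave 3 with no filter on low values, where calls over all probe sets went from 1364 to 1169. The cause of these shifts was not tested. Leaving out 1 array at a time, counts ranged from 0 to 0 (E12 against E9.5, E14 against E12, E18 against E16), 0 to 2 (E16 against E14), 0 to 5 (P0 against E18), 0 to 3 (P0 against E12), 0 to 2 (E18 against E14) and 3 to 7 (F-test). In these fits, calls over all probe sets ran from 973 to 1282 (E12 against E9.5), 128 to 217 (E14 against E12) and 4 to 11 (E18 against E16). They ran from 107 to 181 (E16 against E14), 2 to 715 (P0 against E18) and 1064 to 2794 (P0 against E12). For E18 against E14 they ran from 174 to 228, and for the F-test from 867 to 2357. The replicate block, which rests on numbers that gave no clear sign of pairing, also gave 1 for E16 against E14, 3 for P0 against E12, 6 for E18 against E14 and 6 for the F-test. Over all probe sets it called 245, 1870, 317 and 1651 in these. Dhcr7 is limited by its signal, at or below the floor on 11 of 19 arrays.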

Other observations

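Of 17 listed genes that take up, move, store or export sterol, 13 were tested and 6 rose from E9.5 to E12, a step in which 14.1% of all probe sets were called in either direction. Abca1, which exports cholesterol to lipoproteins, rose 7.66-fold (SE of log2 0.33, adjusted p = 1.32e-05), Npc1, which moves cholesterol out of lysosomes, rose 2.94-fold (SE 0.33, adjusted p = 0.00412), and Osbp, an oxysterol-binding protein, rose 2.52-fold (SE 0.23, adjusted p = 0.000773). Apoe, a lipoprotein component, was listed at 0 on all 3 E9.5 arrays and averaged 1341 ± 761 at E12 (adjusted p = 7.86e-06). Macrophage markers summed to between 1509 and 1714 at E9.5 and between 2613 and 5193 at E12, and 6 of 11 tested were called higher; their part in these rises was not tested.

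From E14 to E18, the interval in which 4 of the synthesis enzymes rose, Abca1 read 1673, 1324 and 2014 and then 383, 315 and 336, a fall of 2.26 on the log2 scale (SE 0.33, adjusted p = 0.000544). Scarb1, a receptor for high-density lipoprotein, read 476, 496 and 508 at E14 and 1194, 1064 and 1471 at E18 (2.50-fold, SE of log2 0.34, adjusted p = 0.0489). Lipa, the lysosomal enzyme that frees cholesterol from its esters, fell by 0.76 on the log2 scale (SE 0.18, adjusted p = 0.029). Of 9 tested genes that use mevalonate products outside the sterol branch, Fnta, a subunit of the protein prenyltransferases, rose 3.00-fold from E12 to P0 (SE of log2 0.34, adjusted p = 0.00424), and no other was called in any of the 7 comparisons. Myelin genes were called higher in 3 of 9 from E14 to E18, against 0.912% of all probe sets, with Mbp rising 4.31-fold (SE of log2 0.25, adjusted p = 6.12e-05).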
